A study of Mus musculus with 58 samples.

Results

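The 8 genes described here are Fgf5, Otx2, Pou3f1, Lef1, Sox4, Sox11, Zic2 and Nr6a1, which are commonly read as genes of the transition of mouse embryonic stem (mES) cells from naive pluripotency to the formative and epiblast states. They were chosen by name, with no measured value in the rule, from 20177 genes with counted 3′ intervals. All cells were E14 mES cells (129/Ola) kept in serum with LIF, the cytokine that holds mES cells in self-renewal. Libraries came from 3 cell lines. In DPY30–mAID cells both copies of DPY30, a shared subunit of the COMPASS enzymes that methylate histone H3 at lysine 4, carry a degron tag through which the protein is degraded after auxin, and the cells hold an OsTIR1 transgene, the controls included. DPY30–mAID Kdm5a/b-dKO cells (dKO cells) additionally lack the demethylases KDM5A and KDM5B, and the methods describe 2 clones that the libraries do not name. In RBBP5–FKBP cells another COMPASS subunit is degraded after dTAG-13.

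Quant-seq, which reads 1 tag near the 3′ end of each polyadenylated transcript, followed DPY30–mAID cells given 1 µM retinoic acid (RA) with DMSO at 0 h, 8 h and days 1, 2, 4 and 6, and given RA with auxin at 8 h and days 1, 2, 4 and 6. RA was given without LIF, so RA, LIF withdrawal and time in culture cannot be told apart, and there is no auxin group at 0 h. SLAM-seq, in which cells received 100 µM 4-thiouridine for 60 min so that new RNA carries T>C conversions, followed DPY30–mAID and RBBP5–FKBP cells at 0, 2, 8 and 24 h of degradation (3 libraries per time) and dKO cells at 0, 2, 4, 8, 24 and 48 h (2 per time). Each Quant-seq group had 2 libraries except DMSO day 6, whose deposited libraries were identical in every count and were used as 1 library.

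As background, mES cells leave the naive state through a formative phase that resembles the epiblast just after implantation, and only then respond to signals for germ layers. OTX2 and POU3F1 are transcription factors that help to install this phase, FGF5 is a secreted growth factor used as its classical marker, ZIC2 is a zinc-finger factor that binds enhancers in epiblast-like cells, and LEF1 is a DNA-binding partner of β-catenin in Wnt signalling. SOX4 and SOX11 are closely related SoxC factors of many embryonic progenitors, and NR6A1 is an orphan nuclear receptor known for repressing Pou5f1 during differentiation.

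Values are given as CPM, the reads of a gene scaled by the total reads of its library. Differences between groups are log2 fold changes ± SE from the quasi-likelihood test of edgeR, with p-values adjusted over all genes tested, and a gene was called higher or lower only with an adjusted p below 0.05 and a change of more than 2-fold. DESeq2, run as an alternative, gave no adjusted p for 74 of 311 member comparisons, so that it could not call them. In those comparisons the absence of a DESeq2 call adds nothing. Libraries held 1264241 to 2543632 reads in the RA course, 2013350 to 2806821 in DPY30–mAID SLAM-seq, 1721185 to 2852331 in RBBP5–FKBP and 5931269 to 7792404 in dKO cells. The study calls its SLAM-seq libraries biological replicates. For the RA course the sources used here do not say whether libraries came from separate cultures. Its p-values measure the spread between these libraries, which may be technical. In bulk samples, fewer cells of a type and less RNA per cell cannot be told apart. Retinoic acid targets rose as a list, all 9 of 9 from day 1 of DMSO on (summed CPM of 25.1 to 25.2 at 0 h and 1481 to 1581 on day 1), and 10 of 13 naive pluripotency genes were lower on day 1. Of all genes tested, 17.1% were called higher and 12.3% lower on day 1.

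The members lie on different chromosomes apart from Otx2 and Zic2, which are both on chromosome 14 (GRCm38). Otx2 (ENSMUSG00000021848, chr14:48657677-48673819, minus strand) was counted over 1 3′UTR interval of 1027 bases, and Zic2 (ENSMUSG00000061524, chr14:122475435-122479852, plus strand) over 1 of 609 bases. Pou3f1 (ENSMUSG00000090125, chr4:124656807-124660655, plus strand), Sox4 (ENSMUSG00000076431, chr13:28948919-28953713, minus strand), Sox11 (ENSMUSG00000063632, chr12:27334264-27342574, minus strand) and Nr6a1 (ENSMUSG00000063972, chr2:38723370-38927688, minus strand) had 1 interval each. Fgf5 (ENSMUSG00000029337, chr5:98254184-98277030, plus strand) and Lef1 (ENSMUSG00000027985, chr3:131110471-131224356, plus strand) had 2, which were summed. Because interval choice and tag efficiency differ between genes, levels are compared within a gene and not between genes. In RefSeq windows of 300 bases around the start (GRCm38.p6), which were found for Fgf5, Lef1, Nr6a1, Otx2, Sox4 and Sox11, the dinucleotide CG occurred 29 times for Fgf5, 21 for Sox11 and 12 for Sox4, against a median of 7 over 32851 such windows. Windows of Lef1, Otx2 and Nr6a1, which have several starts, held 5 to 21, 6 to 16 and 8 to 10.

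The 8 genes did not move as a block when RA was given with DMSO. Sox4 and Sox11 were higher than at 0 h on days 2, 4 and 6, Pou3f1 was below 0 h at every time and short of the fold threshold on day 2, Otx2 rose on day 1 and was lower on day 6, Zic2 was higher on days 1 and 2, Nr6a1 passed the fold threshold only between 8 h and day 1, and Fgf5 and Lef1 had few reads. Against 0 h, 0, 2, 3, 2 and 2 of the 7 members that could be tested were called higher at 8 h and on days 1, 2, 4 and 6, beside 3.47%, 17.1%, 16.3%, 19.6% and 22.6% of 11415 genes. The numbers called lower were 2, 1, 0, 1 and 2, beside 3.03%, 12.3%, 9.97%, 11.1% and 14.4%. For the 2 counts of 0, 1 member was higher at 8 h and 1 lower on day 2 at an unadjusted p below 0.05, and DESeq2 called none. The median log2 fold change of the tested members was -0.80, -0.40, 0.09, 0.10 and 0.09 at these 5 times, whereas the median of all genes lay between 0 and 0.10 at these times.

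**Figure D1:**
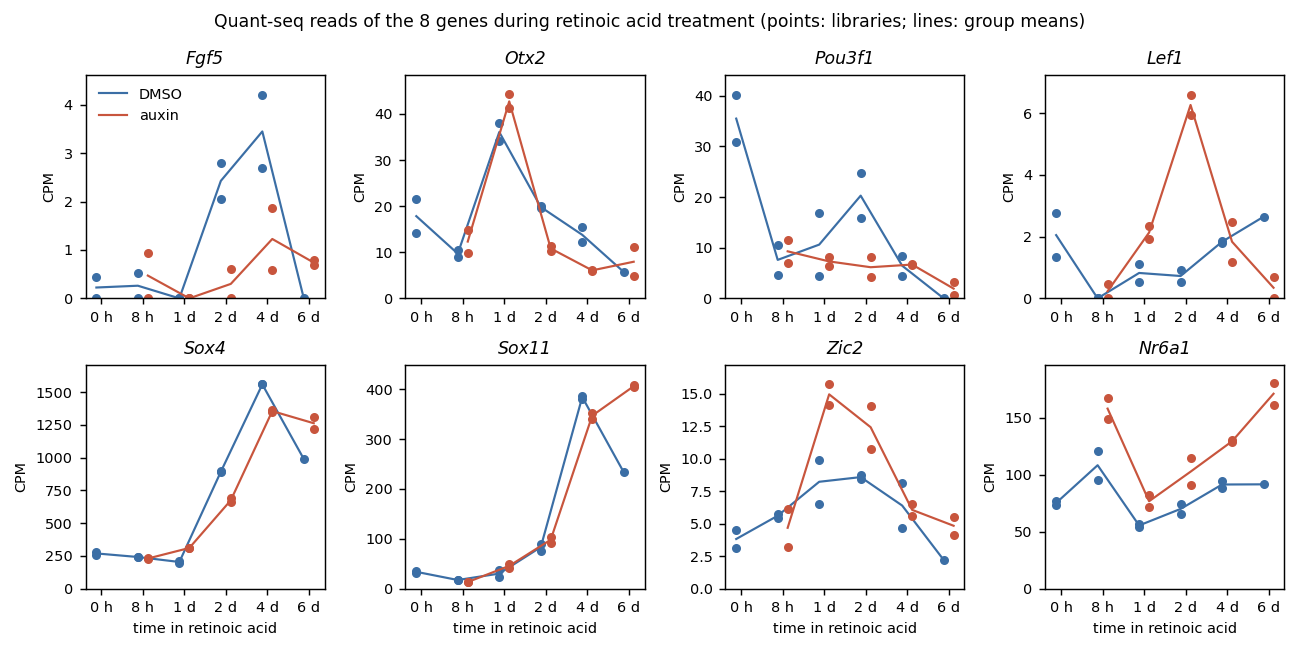
CPM of each member in every Quant-seq library against time of RA, with DMSO and auxin in separate colours. Each point is 1 library and lines join group means. Sox4 and Sox11 climb to their DMSO maximum on day 4, Otx2 peaks on day 1 under both treatments, and Fgf5 and Lef1 stay at or below 6.57 CPM.

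Fgf5, the ligand of the group and its usual marker, was close to undetected. It had 98 reads over all libraries of the series and reached the minimum of a mean of 10 reads in no group, so it was tested in no comparison. In DMSO it read 0.448 and 0 CPM at 0 h, 0.522 and 0 at 8 h, 0 and 0 on day 1, 2.06 and 2.80 on day 2, 2.70 and 4.20 on day 4 and 0 on day 6. The highest DMSO values were those of days 2 and 4. With auxin it read 0 and 0.942 at 8 h, 0 and 0 on day 1, 0 and 0.598 on day 2, 1.86 and 0.593 on day 4 and 0.687 and 0.791 on day 6, so that on days 2 and 4 both auxin libraries were below both DMSO libraries, whereas on day 6 both were above the DMSO library. These are differences of a few reads. None was tested. A count of 0 in 1 library of this depth allows a level of up to 1.32 CPM, as on DMSO day 6 (3 counts, counting error only).

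Otx2, the homeobox factor of the formative phase, showed a pulse. Its DMSO values were 21.5 and 14.2 CPM at 0 h, 8.88 and 10.5 at 8 h, 38.0 and 34.2 on day 1, 19.6 and 20.0 on day 2, 12.2 and 15.4 on day 4 and 5.73 on day 6. Both day 1 libraries lay above every other DMSO library and the day 6 library lay below them all. Otx2 rose from 8 h to day 1 (log2 fold change 1.83 ± 0.29, adjusted p = 1.41e-05) and was higher on day 1 than at 0 h (1.03 ± 0.26, adjusted p = 0.00144), although the latter fell short of the fold threshold without 0 h replicate 2 (0.75) or day 1 replicate 1 (0.95), and the call was lost in a fit of only the groups compared. It was lower on day 6 than at 0 h (-1.81 ± 0.42, adjusted p = 0.000718) and than on day 4 (-1.27 ± 0.44, adjusted p = 0.0446), the last of these not without day 4 replicate 1 (-1.43, adjusted p = 0.0600) or replicate 2 (-1.09, adjusted p = 0.179), nor with DESeq2. The day 6 tests have 1 DMSO library, which is assumed to vary like the other groups. In the step from 8 h to day 1 Otx2 was the 1 member called higher and Nr6a1 the 1 called lower, beside 10.3% and 6.23% of all genes.

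Pou3f1, a POU-domain factor of epiblast and neural progenitors, had its highest level before RA. Its DMSO values were 30.9 and 40.1 CPM at 0 h, 4.70 and 10.5 at 8 h, 16.8 and 4.41 on day 1, 24.7 and 15.9 on day 2, 4.51 and 8.39 on day 4 and 0 on day 6. Every later library was below both 0 h libraries, and the pair of day 1 libraries differed more from each other than any pair at another time. It fell at 8 h (-2.12 ± 0.40, adjusted p = 0.000365), on day 1 (-1.73 ± 0.39, adjusted p = 0.000564) and on day 4 (-2.64 ± 0.41, adjusted p = 5.03e-06), while on day 2 the difference was short of the fold threshold (-0.89 ± 0.34, adjusted p = 0.0334). These 3 calls held in every alternative, with a day 1 value of -2.99 without day 1 replicate 1 and of -1.07 without day 1 replicate 2. On day 6 no read was found among 2269595, at least 27.1-fold lower than at 0 h with a floor of 3 counts over the group, and at least 4.85-fold lower than on day 4. Between days 2 and 4 it fell (-1.74 ± 0.45, adjusted p = 0.00365), a call lost without day 2 replicate 1 (-1.41) or day 4 replicate 1 (-1.36), and the call for day 6 against day 4 was lost without day 4 replicate 2 (adjusted p = 0.0602).

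Zic2 had few reads and small changes. It read 4.48 and 3.15 CPM at 0 h, 5.75 and 5.46 at 8 h, 6.51 and 9.92 on day 1, 8.76 and 8.39 on day 2, 8.11 and 4.66 on day 4 and 2.203 on day 6 in DMSO. The libraries of days 1 and 2 all lay above those of 0 h. It was higher on day 1 (1.11 ± 0.43, adjusted p = 0.0322) and day 2 (1.10 ± 0.42, adjusted p = 0.0327), and its 0 h group alone would not have passed the minimum read count. Without 0 h replicate 2 both calls were lost (0.87 and 0.85), as were the day 1 call without day 1 replicate 2 (0.79) and the day 2 call without day 2 replicate 1 (adjusted p = 0.0957) or replicate 2 (adjusted p = 0.0921). DESeq2 called neither, and the day 1 call was lost in a fit of only the groups compared.

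Lef1, the Wnt effector, was counted with 3 and 7 reads at 0 h, 0 and 0 at 8 h, 1 and 2 on day 1, 1 and 2 on day 2, 4 and 4 on day 4 and 6 on day 6 in DMSO. Both 8 h libraries, of 4296636 reads together, thus lacked it, at least 3.00-fold lower than at 0 h with a floor of 3 counts over the group. The test called it lower at 8 h (adjusted p = 0.0160), but not without 0 h replicate 2 (adjusted p = 0.117), 8 h replicate 1 (adjusted p = 0.0806) or 8 h replicate 2 (adjusted p = 0.119). DESeq2 gave it no adjusted p. Lef1 entered the RA tests only through the auxin day 2 group, the single group with a mean of at least 10 reads.

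Sox4 and Sox11, the SoxC pair, were higher than at 0 h on days 2, 4 and 6. Sox4 read 259.8 and 276.4 CPM at 0 h, 242.4 and 239.2 at 8 h, 210.5 and 195.0 on day 1, 894 and 889.6 on day 2, 1559 and 1558 on day 4 and 989 on day 6. Its day 1 values were the lowest, and every library of days 2, 4 and 6 was above every library of 0 h, 8 h and day 1. It was higher than at 0 h on day 2 (1.66 ± 0.09, adjusted p = 1.38e-14), day 4 (2.36 ± 0.09, adjusted p = 4.98e-18) and day 6 (1.69 ± 0.10, adjusted p = 7.77e-14), with the largest step between days 1 and 2 (2.05 ± 0.09). Sox11 read 30.9 and 36.2 CPM at 0 h, 16.2 and 18.0 at 8 h, 37.4 and 22.6 on day 1, 76.2 and 90.0 on day 2, 381 and 387.5 on day 4 and 233.5 on day 6. It passed through a minimum at 8 h (-0.91 ± 0.21, adjusted p = 0.00334, short of the fold threshold) and was higher on day 2 (1.23 ± 0.17, adjusted p = 8.17e-07), day 4 (3.33 ± 0.15, adjusted p = 3.98e-16) and day 6 (2.60 ± 0.17, adjusted p = 9.1e-13). Its larger step came later than that of Sox4, between days 2 and 4 (2.10 ± 0.14). From day 4 to day 6 both had negative values short of the fold threshold (-0.67 ± 0.10 and -0.73 ± 0.15). These SoxC calls held in every alternative run.

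The steps of Sox4 and Sox11 were the only member calls higher between days 1 and 2 (2 of 7, beside 4.48% of genes, with 0 lower beside 2.44%; 1 lower at an unadjusted p below 0.05, none with DESeq2), and Sox11 was the only one between days 2 and 4 (1 of 7, beside 7.34%), where Pou3f1 was the 1 called lower (beside 5.20%). Between days 4 and 6 none was called higher (beside 5.13%; none at an unadjusted p below 0.05, none with DESeq2) and Otx2 and Pou3f1 were called lower (beside 3.56%; Pou3f1 alone with DESeq2). Markers of primitive endoderm were also higher from day 2 on. Their sum, to which Sparc, Col4a1 and Dab2 had the highest mean CPM, was higher in the 1 library of day 6 than on day 4. The summed level of 13 such genes was 349 to 359 CPM at 0 h, 315 to 329 on day 1, 1524 to 1586 on day 2, 8179 to 8341 on day 4 and 14502 on day 6, with 12 of 13 called higher on day 2 and 13 of 13 on days 4 and 6. The sum of 14 neural genes, of which 7 could be tested, was 286 to 307 CPM at 0 h, 143 to 161 on day 1, 215 to 220 on day 2, 136 to 137 on day 4 and 57.7 on day 6. On day 2 Map2 and Nes were called higher than at 0 h and Elavl3 and Elavl4 lower. A list of 9 trophoblast and simple epithelial genes summed to 65.8 to 78.2 CPM at 0 h, 60.2 to 60.6 on day 1, 276 to 314 on day 2, 511 to 531 on day 4 and 1725 on day 6. Of its 8 tested genes 5 were called higher on each of days 2, 4 and 6, Krt7, Krt8 and Krt18 each time. Beside these list counts, 16.3%, 19.6% and 22.6% of all genes were called higher than at 0 h on these days. The part of these cell types in the SoxC values was not tested.

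Nr6a1, the orphan nuclear receptor, stayed within a 1.95-fold range of DMSO group means. In DMSO it read 77.0 and 73.5 CPM at 0 h, 121 and 95.7 at 8 h, 56.4 and 54.5 on day 1, 65.9 and 74.1 on day 2, 88.3 and 94.7 on day 4 and 91.6 on day 6. Both 8 h libraries were above all others and both day 1 libraries below them. Against 0 h the differences at 8 h (0.58 ± 0.15, adjusted p = 0.00617) and day 1 (-0.43 ± 0.16, adjusted p = 0.0271) were short of the fold threshold, and the step between them just passed it (-1.01 ± 0.16, adjusted p = 1.31e-05). That call was lost without 8 h replicate 1 (-0.84) or day 1 replicate 2 (-0.98), and without TMM scaling.

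Among 17 other formative genes, all of which could be tested, 1, 2, 2, 2 and 1 were called higher at 8 h and on days 1, 2, 4 and 6 in DMSO, and 2, 8, 5, 5 and 8 lower. The shares of all genes called at these times were 3.47%, 17.1%, 16.3%, 19.6% and 22.6% higher and 3.03%, 12.3%, 9.97%, 11.1% and 14.4% lower. Their summed level was 3154 to 3345 CPM at 0 h, 1439 to 1441 on day 1 and 1405 on day 6. Utf1, Tcf15 and Etv4, a chromatin factor, a bHLH factor and an ETS factor downstream of FGF signalling, were among those lower on days 1, 2, 4 and 6, and Sox3 was higher at the same times. Of 15 paralogues of the members 9 could be tested, and on day 1 the relative of Zic2, Zic5, was the 1 called higher, whereas the FGF ligands Fgf4 and Fgf15 were the 2 called lower. Sox12, the remaining SoxC gene, was called lower at 8 h.

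Over the means of the 11 RA groups, Pearson's r between the members was highest for Sox4 with Sox11 (0.957). This describes group means that share libraries, and is given with no test. Of 11415 genes, Sox4 was most like Zfp608 (r = 0.980) and Podxl (0.979), and Sox11 most like Arhgap28 (0.990) and Dapk1 (0.989). Otx2 was most like Atpif1 (0.946) and Prmt7 (0.940), with r = 0.627 to Zic2. Pou3f1 was most like Ppp1r35 (0.964) and She (0.947), Nr6a1 like Stard7 (0.940) and Etnk2 (0.923), Zic2 like Drg1 (0.935) and Rps19 (0.927), and Lef1 like Vps50 (0.944) and Ptpre (0.866).

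The auxin arm asks how the members behave when RA is given while DPY30 is degraded. Otx2 kept a day 1 pulse, Zic2 and Sox11 rose from 8 h to day 1, and the differences from DMSO were confined, among called ones, to Pou3f1 and Lef1 on day 2 and Otx2 on day 4. Lef1 entered these tests only through the auxin day 2 group, so its call there supports nothing. At 8 h no member was called higher or lower, beside 0.0175% and 0.149% of genes (edgeR; 1 higher and none lower at an unadjusted p below 0.05, none with DESeq2). On day 1 none was called, beside 0.894% and 1.54% (4 higher and none lower at an unadjusted p below 0.05, none with DESeq2). On day 2, 1 was called higher (Lef1) and 1 lower, beside 2.71% and 2.04%, and on day 4 none was called higher and 1 lower, beside 4.42% and 2.88% (none higher at an unadjusted p below 0.05 or with DESeq2). On day 6 none was called, beside 4.21% and 5.97% (2 higher and 1 lower at an unadjusted p below 0.05, none with DESeq2).

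**Figure D2:**
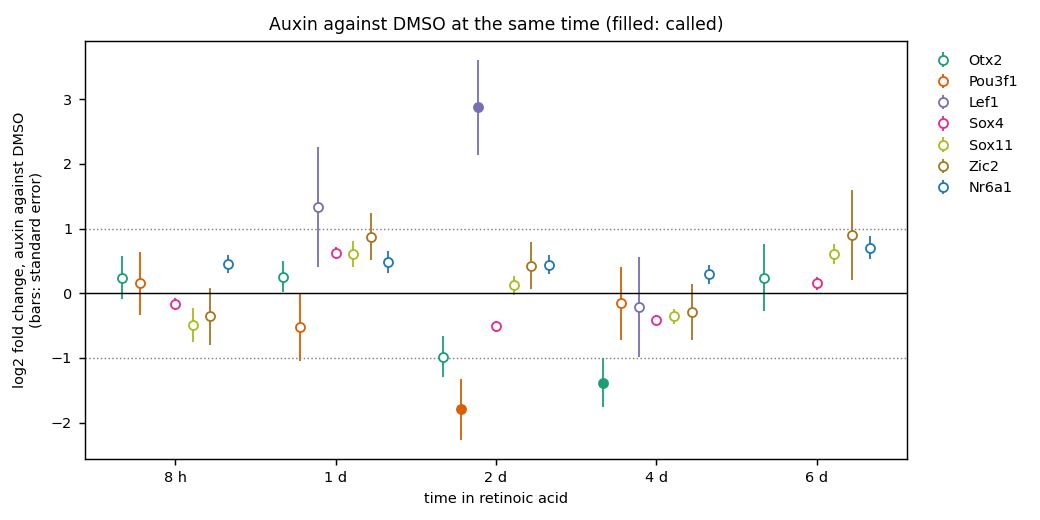
Log2 fold change of auxin against DMSO for each tested member after 8 h and 1, 2, 4 and 6 days of RA, with bars for the SE and filled symbols for called differences. Lef1 at 8 h and on day 6 and Pou3f1 on day 6 are left out because a group in these comparisons has at most 1 read. Otx2 moves from 0.26 on day 1 to -1.38 on day 4.

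Otx2 read 14.7 and 9.89 CPM at 8 h, 44.3 and 41.2 on day 1, 10.3 and 11.4 on day 2, 6.20 and 5.93 on day 4 and 4.81 and 11.1 on day 6 with auxin. The day 1 pulse was therefore present, and both libraries of day 2 and of day 4 were below their DMSO counterparts. It rose from 8 h to day 1 (1.84 ± 0.27, adjusted p = 1.07e-05) and fell from day 1 to day 2 (-2.18 ± 0.29, adjusted p = 2.66e-06), where the same step in DMSO was short of the fold threshold (-0.94 ± 0.26, adjusted p = 0.00973). Against DMSO it was lower on day 4 (-1.38 ± 0.37, adjusted p = 0.00944), with a value short of the fold threshold on day 2 (-0.98 ± 0.31, adjusted p = 0.0359). The day 4 call was lost without auxin day 4 replicate 1 (adjusted p = 0.0622) or replicate 2 (adjusted p = 0.0696), without DMSO day 4 replicate 2 (-1.20), and with DESeq2. The auxin effect on day 4 differed from that at 8 h (-1.62 ± 0.50, adjusted p = 0.0498), the 1 member called lower in this test of a difference, beside 1.70% of genes (0 higher, beside 1.87%, none at an unadjusted p below 0.05 or with DESeq2). That call was lost without any 1 of 7 of the 8 libraries involved (auxin 8 h replicate 1, both auxin day 4, both DMSO 8 h and both DMSO day 4 libraries, -1.78 to -1.29). It was also lost with DESeq2, without TMM scaling, with the replicate number as a block and without multi-mapped reads.

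Pou3f1 read 11.5 and 7.06 CPM at 8 h, 8.15 and 6.44 on day 1, 8.11 and 4.18 on day 2, 6.83 and 6.52 on day 4 and 0.687 and 3.16 on day 6 with auxin. On day 2 both auxin libraries were below both DMSO libraries, which had 24.7 and 15.9 CPM. It was lower than in DMSO on day 2 (-1.79 ± 0.47, adjusted p = 0.0108). This call was lost without auxin day 2 replicate 2 (-1.41) or DMSO day 2 replicate 1 (-1.46).

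Lef1 had 1 and 0 reads at 8 h, 4 and 3 on day 1, 11 and 11 on day 2, 4 and 2 on day 4 and 1 and 0 on day 6 with auxin. The day 2 libraries were above all others in either treatment, and since Lef1 passed the read minimum only through them, they had to stand high. Against DMSO on day 2 the reads were 22 against 3, a ratio of 8.51 with an exact counting interval of 2.56 to 44.4 (log2 fold change 2.88 ± 0.73, adjusted p = 0.00870). The call was lost without auxin day 2 replicate 2 (adjusted p = 0.0526), DMSO day 2 replicate 1 (adjusted p = 0.0766) or replicate 2 (adjusted p = 0.0526), and DESeq2 gave no adjusted p for this comparison or for the Lef1 steps that follow. From 8 h to day 1 the reads were 1 and 7, a ratio of 9.19 with an interval of 1.18 to 414, and the call (adjusted p = 0.0491) was lost without any 1 of the 4 libraries, without TMM scaling, with no filter on low counts, with the replicate block and without multi-mapped reads. The step from day 2 to day 4 was called lower (-1.94 ± 0.64, adjusted p = 0.0247) and was also lost without any 1 of its 4 libraries (-2.52 to -1.51) and with no filter on low counts.

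Zic2 read 3.22 and 6.12 CPM at 8 h, 15.7 and 14.2 on day 1, 14.1 and 10.8 on day 2, 5.58 and 6.52 on day 4 and 4.12 and 5.54 on day 6 with auxin. Its libraries of days 1 and 2 were above every DMSO library. It rose from 8 h to day 1 (1.73 ± 0.39, adjusted p = 0.00127) and fell from day 2 to day 4 (-1.24 ± 0.39, adjusted p = 0.0204), the latter not without auxin day 2 replicate 1 (-1.01), day 4 replicate 1 (-1.13) or day 4 replicate 2 (-1.36, adjusted p = 0.0692), nor with DESeq2 or without TMM scaling. Against DMSO no difference was called (day 1 0.88 ± 0.36, adjusted p = 0.155, and day 2 0.43 ± 0.36, adjusted p = 0.481). In the step from 8 h to day 1 the 4 members called higher with auxin were Lef1, Otx2, Sox11 and Zic2, beside 8.33% of genes (Lef1 again tested only through its day 2 level), with 0 lower beside 4.24% (1 at an unadjusted p below 0.05, none with DESeq2). For the later steps 0, 1 and 0 were called higher, beside 6.22%, 5.48% and 2.03%, and 1, 2 and 0 lower, beside 2.39%, 3.19% and 1.87%. Of the steps without a call, 3 members were higher between days 1 and 2 and 1 higher and 1 lower between days 4 and 6 at an unadjusted p below 0.05, and DESeq2 called none of them.

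Sox4 read 227.6 and 230.7 CPM at 8 h, 308.7 and 310.8 on day 1, 688 and 659.8 on day 2, 1349.5 and 1361 on day 4 and 1307 and 1217 on day 6 with auxin. It was above both DMSO libraries on day 1, and below both on days 2 and 4. All 3 differences were short of the fold threshold (0.62 ± 0.09, adjusted p = 6.92e-05; -0.51 ± 0.08, adjusted p = 8.97e-05; and -0.41 ± 0.08, adjusted p = 0.000509). The auxin effect on day 1 differed from that at 8 h by 0.79 ± 0.13 (adjusted p = 0.00123), also short of the fold threshold. In this comparison none of the members was called, beside 0.499% higher and 0.438% lower (3 higher and none lower at an unadjusted p below 0.05; DESeq2 called 1 higher), and for day 2 none, beside 1.10% and 1.13% (1 higher and 3 lower at an unadjusted p below 0.05, none with DESeq2).

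Sox11 read 12.9 and 13.2 CPM at 8 h, 41.9 and 48.9 on day 1, 92.0 and 104 on day 2, 353 and 341 on day 4 and 404 and 408 on day 6 with auxin. Its day 6 libraries were the highest with auxin, whereas the DMSO library of day 6 had 233.5 CPM. It rose from 8 h to day 1 (1.85 ± 0.23, adjusted p = 6.89e-07) and from day 2 to day 4 (1.62 ± 0.14, adjusted p = 1.81e-09). Against DMSO the value was -0.36 ± 0.12 on day 4 (adjusted p = 0.0378) and 0.60 ± 0.15 on day 6 (adjusted p = 0.00623), both short of the fold threshold. The auxin effect on day 6 exceeded that at 8 h (1.10 ± 0.30, adjusted p = 0.0209), the 1 member called higher, beside 2.46% of genes (0 lower, beside 3.37%, none at an unadjusted p below 0.05 or with DESeq2). That call was lost without auxin 8 h replicate 1 (1.09, adjusted p = 0.0712) or replicate 2 (adjusted p = 0.0752), or DMSO 8 h replicate 2 (1.00, adjusted p = 0.131), and in a fit of only the groups compared.

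Nr6a1 read 167.7 and 149 CPM at 8 h, 82.1 and 71.4 on day 1, 114.7 and 90.8 on day 2, 130.3 and 128.7 on day 4 and 161.5 and 181 on day 6 with auxin. At every time both auxin libraries were above the DMSO libraries. No difference was called, since all were short of the fold threshold, and the adjusted p was below 0.05 on day 6 alone (0.71 ± 0.18, adjusted p = 0.00574; 0.46 ± 0.14, adjusted p = 0.136 at 8 h; 0.48 ± 0.17, adjusted p = 0.0824 on day 1).

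Primitive endoderm markers also differed between the arms. Their summed level with auxin was 1159 to 1164 CPM on day 2, 2615 to 2651 on day 4 and 3300 to 3452 on day 6, and 4, 10 and 12 of 13 were called lower than in DMSO on these days, beside 2.04%, 2.88% and 5.97% of all genes. Both auxin libraries of Sox4 and of Sox11 were below the DMSO libraries on day 4 and above the 1 DMSO library on day 6. Genes of primed epiblast and primitive streak summed to 552 to 564 CPM in DMSO and 305 to 318 with auxin on day 2. Of the 5 of 13 that could be tested, Eomes and Lefty2 were called lower. On day 1 their sums overlapped (280 to 302 CPM in DMSO, 302 to 310 with auxin), and on day 6 the sum was higher with auxin (192 to 221 against 106). Retinoic acid targets summed to 189 to 218 CPM with auxin at 8 h (DMSO 300 to 307), 857 to 900 on day 1 (DMSO 1481 to 1581) and 1657 to 1662 on day 2 (DMSO 1762 to 1780). Later their sum was above DMSO, at 1585 to 1653 on day 4 (DMSO 1148 to 1161) and 1444 to 1543 on day 6 (DMSO 1214). Neural genes summed to 164 to 173 CPM with auxin at 8 h (DMSO 251 to 261) and 131 to 159 on day 6 (DMSO 57.7). For naive pluripotency genes the sum was 2370 to 2460 on day 1 (DMSO 1868 to 1897) and 2211 to 2322 on day 4 (DMSO 2566 to 2609). The part of these lists in the member values was not tested. Of the 17 other formative genes 2, 1 and 1 were called lower on days 2, 4 and 6, with Tcf15 each time, and 1, 1 and 0 higher, with Grhl2 on days 2 and 4. The shares of all genes were 2.04%, 2.88% and 5.97% lower and 2.71%, 4.42% and 4.21% higher.

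SLAM-seq separates new from older RNA. Reads with at least 1 T>C conversion were taken as new RNA, a wider definition than that of the study, which filtered reads for more conversions. The share of reads with a T>C conversion in DPY30–mAID cells went from 15.8% ± 0.463 (SD, n = 3) at 0 h to 14.7% ± 0.272 at 2 h, 9.46% ± 3.78 at 8 h and 15.3% ± 0.664 after 24 h, with single libraries of 5.51% to 13.0% at 8 h. RBBP5–FKBP cells had 9.56% ± 0.525 before and 5.13% ± 0.247 after 24 h, and dKO cells 4.98% ± 0.407 (n = 2) before and 2.204% ± 0.236 after 48 h. Unlabelled Quant-seq libraries had 0.303% to 0.388%. Reads covered 18.0 to 19.0 T positions on average in the first pair of lines and 11.2 to 11.3 in dKO cells, so that T>C levels are not compared between dKO cells and the other lines. In unlabelled libraries T>C reads made up 0.292% of the reads of Nr6a1, 0.175% of Sox4 and 0.264% of Sox11.

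**Figure D3:**
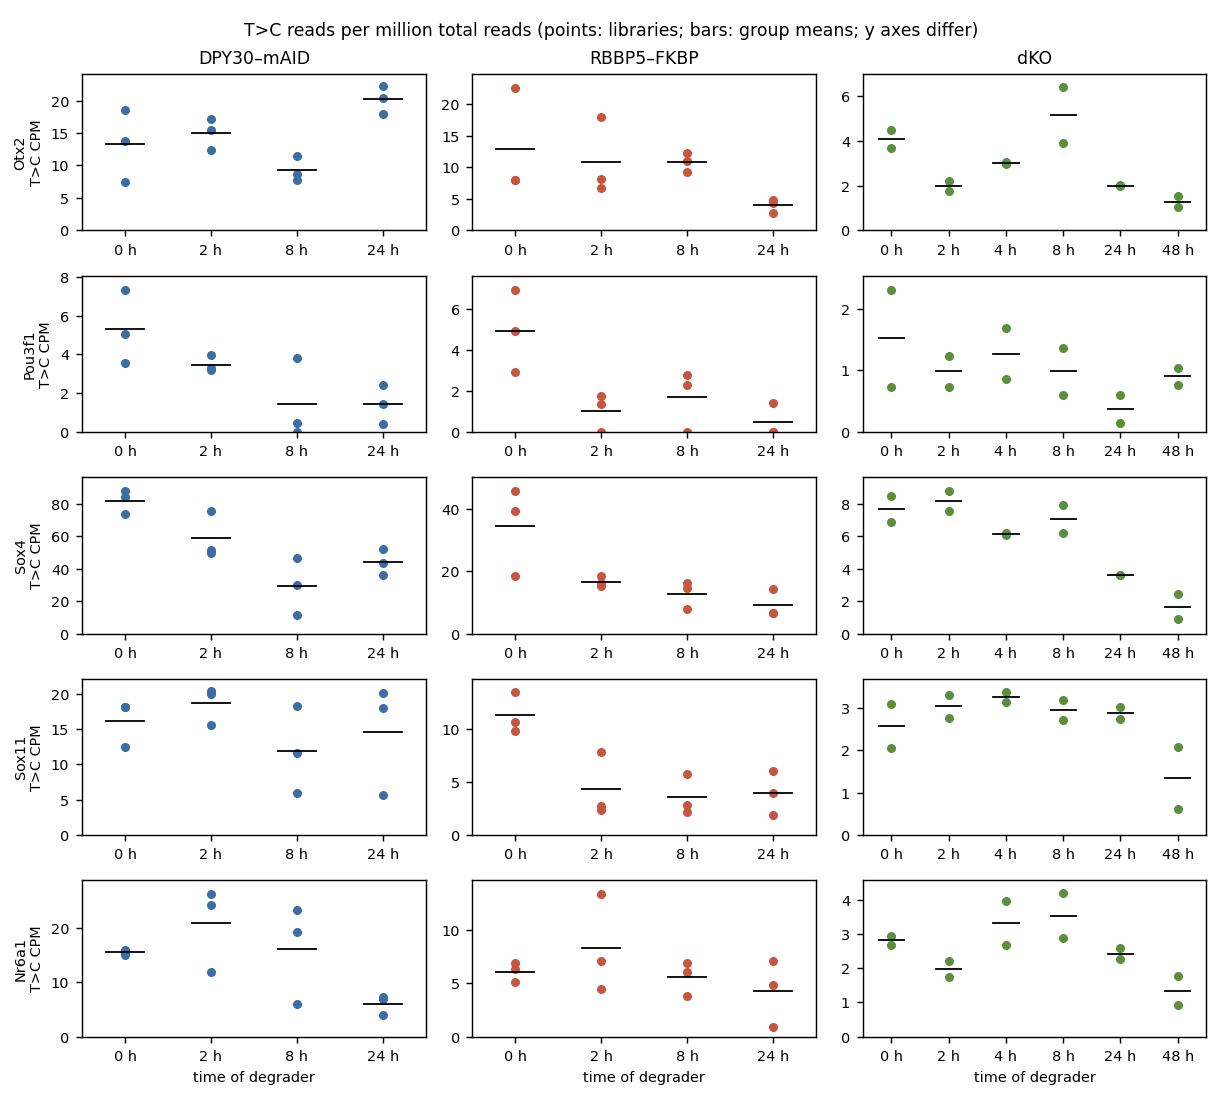
T>C reads of Otx2, Pou3f1, Sox4, Sox11 and Nr6a1 in CPM of total reads in every SLAM-seq library against time of degradation, with a column of panels for each cell line and y axes that differ. Points are libraries and bars group means. Sox4 has the clearest decline, from 73.9 to 88.0 at 0 h to 11.4 to 46.4 at 8 h in DPY30–mAID cells.

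Before degradation, all 6 tested members had a labelled share above the gene median in DPY30–mAID cells, although the counting intervals of Pou3f1 and Zic2 include that median. Of Sox11 reads 31.0% carried T>C (Wilson 95% interval 26.6% to 35.7%, counting error only), the 84.9th percentile of 5862 genes, whose median was 18.5%. Otx2 had 24.7% (20.7% to 29.2%), Sox4 23.7% (22.1% to 25.3%), Pou3f1 23.4% (17.6% to 30.3%), Nr6a1 23.3% (19.8% to 27.2%) and Zic2 21.1% (15.6% to 27.8%). Pou3f1, Sox11 and Otx2 of RBBP5–FKBP cells had 20.7%, 19.7% and 18.0%, against a median of 10.3%, and Nr6a1 had 7.11%. In this line Otx2 ranged from 10.4% to 32.9% in single 0 h libraries. In dKO cells Otx2 had 13.0% (10.2% to 16.4%), against a median of 5.42%, while Sox4 and Nr6a1 had 3.90% and 3.69%.

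Sox4 was the 1 member whose new RNA was called lower in all 3 lines, although no such call was kept when library sizes were taken from T>C reads. In DPY30–mAID cells its T>C level in CPM of total reads was 84.0, 88.0 and 73.9 at 0 h, 51.3, 75.3 and 49.7 at 2 h, 46.4, 30.0 and 11.4 at 8 h and 43.7, 52.4 and 35.9 at 24 h. All libraries of 8 h and 24 h were below those of 0 h. It fell at 8 h (-1.58 ± 0.35, adjusted p = 0.00172), the 1 member of 6 tested that was called lower, beside 14.5% of 6317 genes (0 higher, beside 0.158%; none higher at an unadjusted p below 0.05 or with DESeq2). The median of all genes moved by -0.71, so that Sox4 stood 0.87 below it, and with library sizes taken from T>C reads its value was -0.94 (adjusted p = 0.00737), short of the fold threshold. At 2 h no member was called, beside 0% and 0% (none at an unadjusted p below 0.05 or with DESeq2), and at 24 h none, beside 0.807% higher and 2.75% lower (2 lower and none higher at an unadjusted p below 0.05, none with DESeq2; Sox4 -0.91 ± 0.34, adjusted p = 0.124).

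In RBBP5–FKBP cells the T>C level of Sox4 was 39.3, 45.9 and 18.5 at 0 h, 18.6, 15.3 and 16.2 at 2 h, 16.1, 7.74 and 14.6 at 8 h and 6.64, 6.52 and 14.5 at 24 h. Every library of 8 h and 24 h was below every 0 h library, of which replicate 3 stood far below the other two. It was lower at 8 h (-1.48 ± 0.41, adjusted p = 0.0155) and 24 h (-1.94 ± 0.42, adjusted p = 0.000282). The all-gene medians were -0.50 and -0.91, and Sox4 stood 0.98 and 1.03 below them. With library sizes from T>C reads neither was called (-0.999, adjusted p = 0.288, and -1.04, adjusted p = 0.225), and the 8 h call was lost without 0 h replicate 1 (-1.38, adjusted p = 0.0528), 0 h replicate 2 (-1.23) or 8 h replicate 2 (-1.24). In dKO cells it was 6.91 and 8.47 at 0 h, 7.57 and 8.81 at 2 h, 6.11 and 6.24 at 4 h, 7.96 and 6.23 at 8 h, 3.60 and 3.63 at 24 h and 2.44 and 0.891 at 48 h. The libraries of 24 h and 48 h were below all earlier ones. Sox4 fell at 24 h (-1.15 ± 0.31, adjusted p = 0.00202) and 48 h (-2.30 ± 0.36, adjusted p = 5.87e-08), with all-gene medians of -0.80 and -1.29. With library sizes from T>C reads the values were -0.35 and -0.99, neither of them called, and the 24 h call was lost without 0 h replicate 2 (-0.98).

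Otx2 new RNA in DPY30–mAID cells was 18.6, 7.48 and 13.8 CPM at 0 h, 12.3, 17.1 and 15.4 at 2 h, 11.5, 7.74 and 8.66 at 8 h and 20.5, 17.9 and 22.2 at 24 h. The groups of 0 h and 8 h overlapped, and no difference was called (8 h -0.60 ± 0.46, 24 h 0.61 ± 0.44). Its levels in RBBP5–FKBP cells were 22.6, 8.06 and 7.99 at 0 h, 8.13, 6.67 and 18.0 at 2 h, 9.22, 11.1 and 12.2 at 8 h and 4.43, 2.80 and 4.82 at 24 h. All libraries of 24 h were below the others (-1.69 ± 0.56, adjusted p = 0.0187), but the call was lost without 0 h replicate 1 (-1.02) or 24 h replicate 2 (-1.50), and with library sizes from T>C reads (-0.77). In dKO cells it was 3.68 and 4.49 at 0 h, 1.75 and 2.202 at 2 h, 2.98 and 3.03 at 4 h, 3.90 and 6.38 at 8 h, 2.01 and 1.97 at 24 h and 1.52 and 1.04 at 48 h. It was lower at 24 h (-1.10 ± 0.41, adjusted p = 0.0239) and 48 h (-1.75 ± 0.44, adjusted p = 0.000405), which with library sizes from T>C reads were -0.30 and -0.46 and not called. The 24 h call was lost without 0 h replicate 2 (-0.93) or either 24 h library (-1.11, adjusted p = 0.0904, and -1.08, adjusted p = 0.105), with DESeq2 and with no filter on low counts.

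Nr6a1 new RNA was 15.6, 15.0 and 15.9 CPM at 0 h, 11.9, 24.3 and 26.3 at 2 h, 19.2, 23.2 and 5.92 at 8 h and 7.22, 3.88 and 6.86 at 24 h in DPY30–mAID cells. All 24 h libraries lay below those of 0 h, with a difference that did not pass the test (-1.37 ± 0.50, adjusted p = 0.112) other than with library sizes from T>C reads (-1.23, adjusted p = 0.0401). In dKO cells it was 2.94 and 2.69 at 0 h, 4.20 and 2.89 at 8 h, 2.59 and 2.27 at 24 h and 0.915 and 1.78 at 48 h. It was called lower at 48 h (-1.13 ± 0.47, adjusted p = 0.0278), close to the all-gene median of -1.29, and with library sizes from T>C reads its sign turned (0.15, adjusted p = 0.913). The call was lost without either 0 h library (-1.09 and -1.18) or 48 h replicate 1 (-0.73), with DESeq2 and with no filter on low counts. No difference of Nr6a1 was called in RBBP5–FKBP cells (-0.54 ± 0.67 at 24 h).

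Sox11 new RNA in DPY30–mAID cells was 18.1, 12.5 and 18.1 CPM at 0 h, 18.3, 11.6 and 5.92 at 8 h and 20.1, 17.9 and 5.65 at 24 h, so that the groups overlapped. The RBBP5–FKBP libraries had 10.6, 9.82 and 13.4 at 0 h, 2.32, 7.85 and 2.69 at 2 h, 5.76, 2.21 and 2.82 at 8 h and 3.99, 6.06 and 1.93 at 24 h. Every later library lay below the 0 h libraries, and no difference passed the test (-1.70 ± 0.68, adjusted p = 0.116, at 8 h; -1.52 ± 0.66, adjusted p = 0.0794, at 24 h). The all-gene medians were -0.50 and -0.91. With library sizes from T>C reads the 24 h value was -0.63 (edgeR, adjusted p = 0.747). In this line Sox11 reached the minimum of 10 T>C reads only at 0 h and 2 h. In dKO cells Sox11 ranged from 2.06 to 3.37 up to 24 h and was 0.610 and 2.08 at 48 h (-1.02 ± 0.48, adjusted p = 0.0509).

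Pou3f1 reached the minimum of 10 T>C reads only in the 0 h group of each line, so it entered these tests through the group where it was high. In DPY30–mAID cells its T>C level was 7.32, 3.56 and 5.07 CPM at 0 h, 3.29, 3.19 and 3.97 at 2 h, 3.83, 0.484 and 0 at 8 h and 2.41, 1.45 and 0.404 at 24 h, with no call (-1.91 ± 0.96, adjusted p = 0.164, at 8 h). RBBP5–FKBP cells had levels of 6.93, 4.91 and 2.90 at 0 h, 2.30, 2.76 and 0 at 8 h and 0, 1.40 and 0 at 24 h, and Pou3f1 was not called there either (24 h adjusted p = 0.0548). In dKO cells it was 0.735 and 2.31 at 0 h, 0.144 and 0.605 at 24 h and 0.762 and 1.04 at 48 h. Pou3f1 was called lower at 24 h (-2.08 ± 0.76, adjusted p = 0.0219), but not without 24 h replicate 1 (-1.40) or with library sizes from T>C reads (-1.29). DESeq2 gave it no adjusted p, and at 48 h there was no call (-0.86 ± 0.64). Zic2 could be tested in DPY30–mAID cells alone (8 h -0.68 ± 0.82), and Lef1 and Fgf5 in no line.

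**Figure D4:**
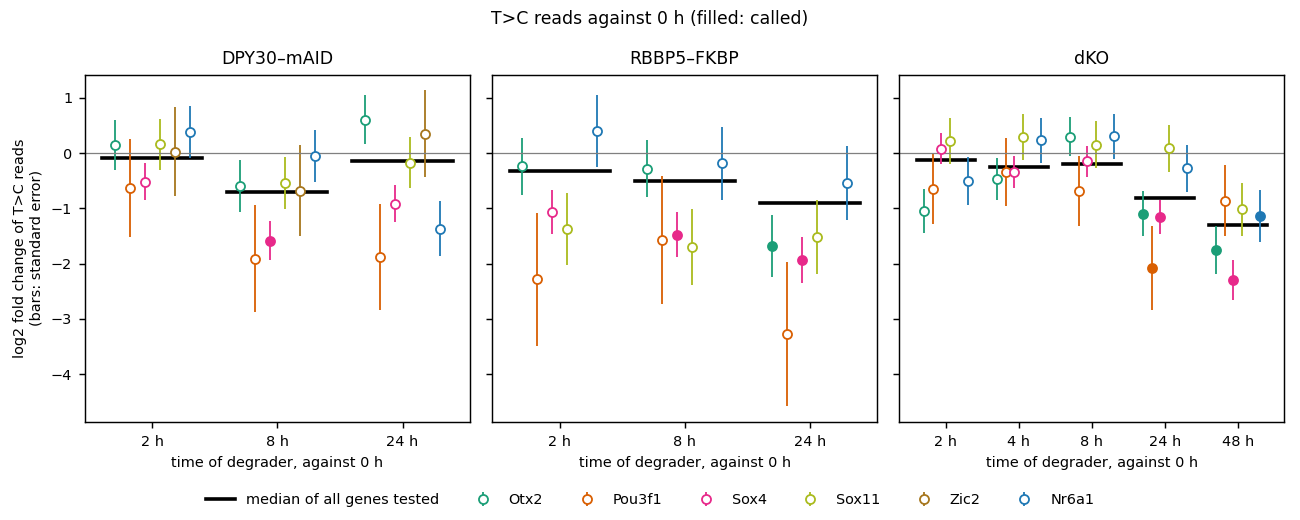
Log2 fold change of T>C reads against 0 h for each tested member by line and time, with bars for the SE, filled symbols for called differences and black bars for the median of all genes tested. The all-gene median itself reaches -0.71 at 8 h in DPY30–mAID cells and -1.29 at 48 h in dKO cells, and Sox4 lies 0.87 below it at 8 h in DPY30–mAID cells.

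In RBBP5–FKBP cells 0, 1 and 2 of 5 tested members were called lower at 2, 8 and 24 h, beside 0.147%, 5.61% and 22.9% of 4761 genes, and none higher, beside 0%, 0.126% and 0.189% (edgeR; at an unadjusted p below 0.05, 2 were lower at 2 h and none higher at any time, and DESeq2 called none at 2 h and none higher). It gave no adjusted p for 4 of the 5 at 2 h and 3 of the 5 at 8 h. In dKO cells none of 5 was called at 2, 4 or 8 h, beside 0%, 0.201% and 0.704% lower and 0%, 0% and 0.0168% higher of 5965 genes (1 lower at 2 h at an unadjusted p below 0.05, none with DESeq2). At 4 h and 8 h DESeq2 gave no adjusted p for any of the 5, so it could call none. At 24 h and 48 h, 3 and 3 of 5 were called lower, beside 27.5% and 64.4%, and none higher, beside 0.117% and 0.117% (none at an unadjusted p below 0.05 or with DESeq2). DESeq2 called 1 and 2 lower at these times. The 24 h count includes Pou3f1, which passed the read minimum only through the 0 h group. The members' medians were -1.10 and -1.13 at these times, those of all genes -0.80 and -1.29.

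Among the 17 other formative genes, new RNA was called lower for 7 of the 10 tested at 24 h in RBBP5–FKBP cells and for 7 of 10 at 48 h in dKO cells, with Utf1 and Tcf15 in both, and for none higher in these comparisons. Of all genes, 22.9% and 64.4% were called lower in these comparisons. The medians of the list were -1.39 and -1.34, and those of all genes -0.91 and -1.29.

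The changes of T>C reads after degradation in dKO cells were set against those in DPY30–mAID cells in 1 fit. No member of 6 was called at 2, 8 or 24 h, beside 0%, 0.304% and 0.0290% of 6901 genes called higher and 0%, 0.0145% and 2.38% called lower (edgeR; at an unadjusted p below 0.05 none at 2 h, 1 higher at 8 h and 1 lower at 24 h, and DESeq2 called 1 higher at 8 h and 1 lower at 24 h). At 8 h Sox4 had the smallest adjusted p (1.45 ± 0.50, adjusted p = 0.176), and all 6 estimates were positive, with a median of 1.08 beside 0.53 for all genes. With library sizes from T>C reads they were not all positive. Nr6a1 was then at -0.09, Sox11 at 0.24, Otx2 at 0.34, Pou3f1 at 0.90, Sox4 at 1.02 and Zic2 at 1.38, none called. Zic2 (1.70 ± 1.68) had 2 and 4 T>C reads in dKO cells at 0 h and 8 h. At 24 h Otx2 stood at -1.69 ± 0.64 (adjusted p = 0.124). In counts simulated for this comparison of lines at 2 h, the fit recovered 55% of 200 genes given a log2 change of 2. The simulation gave both lines the same T>C rate and a fixed spread, unlike the data, and did not cover 8 h or 24 h. A miss therefore does not show that the lines responded alike.

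**Figure D5:**
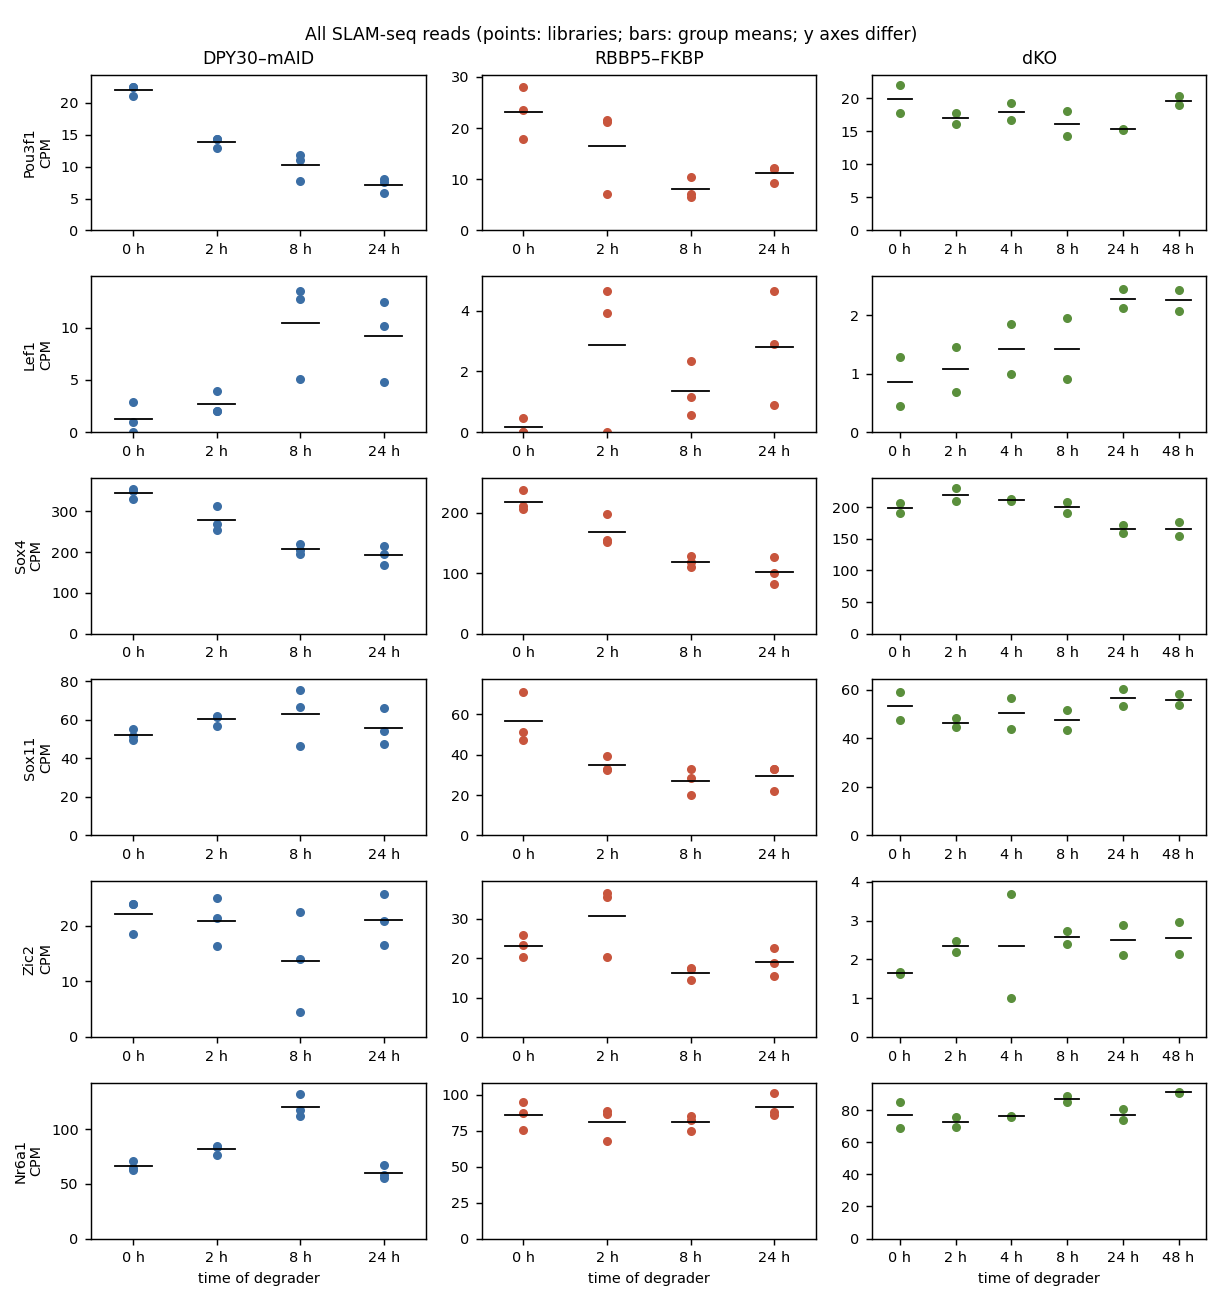
CPM of total reads of Pou3f1, Lef1, Sox4, Sox11, Zic2 and Nr6a1 in every SLAM-seq library against time of degradation, with a column of panels for each cell line and y axes that differ. Points are libraries and bars group means. Pou3f1 declines in DPY30–mAID cells from 21.0 to 22.5 at 0 h to 5.82 to 8.07 at 24 h, and Lef1 has 4.81 to 13.6 at 8 h and 24 h.

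Total reads hold old and new RNA. At 2 h no member was called in DPY30–mAID, RBBP5–FKBP or dKO cells, beside 0% higher and 0% lower in each (edgeR; 1, 2 and 0 lower and none higher at an unadjusted p below 0.05, and none with DESeq2). DESeq2 gave no adjusted p for 3 of 7 members in DPY30–mAID cells and 6 of 7 in dKO cells. In DPY30–mAID cells 1 of 7 was called higher and 1 lower at 8 h (beside 2.26% and 1.90% of 9848 genes) and again at 24 h (beside 6.16% and 7.06%), Lef1 and Pou3f1 each time. Lef1 passed the read minimum only through the 8 h and 24 h groups, so its calls higher support nothing. In RBBP5–FKBP cells 2 and 1 of 6 were called lower at 8 h and 24 h (beside 2.10% and 1.86% of 9676 genes), and none higher (beside 2.22% and 1.63%; none at an unadjusted p below 0.05 or with DESeq2).

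Pou3f1 total reads were 22.5, 21.0 and 22.5 CPM at 0 h, 14.4, 14.4 and 12.9 at 2 h, 11.1, 7.74 and 11.8 at 8 h and 7.62, 5.82 and 8.07 at 24 h in DPY30–mAID cells. No 2 groups overlapped apart from those of 8 h and 24 h. It was lower at 24 h (-1.61 ± 0.40, adjusted p = 0.00137), a call that held in every alternative, and at 8 h (-1.20 ± 0.39, adjusted p = 0.0334), a call lost without any 1 of the 6 libraries of 0 h and 8 h (-1.31 to -1.05), without TMM scaling and with no filter on low counts. In RBBP5–FKBP cells it was 23.6, 17.9 and 28.0 at 0 h, 21.5, 7.06 and 21.1 at 2 h, 10.4, 6.63 and 7.05 at 8 h and 9.30, 12.1 and 12.05 at 24 h. It was lower at 8 h (-1.58 ± 0.45, adjusted p = 0.0279), not without 0 h replicate 3 (-1.41) or any 1 of the 8 h libraries (-1.79 to -1.47), nor in a fit of only the groups compared. At 24 h the difference was not called (-1.08 ± 0.43, adjusted p = 0.124). In dKO cells it was 22.1 and 17.7 at 0 h, 15.4 and 15.1 at 24 h and 20.3 and 19.0 at 48 h, with no call.

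Lef1 was counted with 2, 0 and 8 reads at 0 h, 12, 28 and 28 at 8 h and 12, 21 and 31 at 24 h in DPY30–mAID cells. All libraries of 8 h and 24 h were above those of 0 h, and it passed the minimum only through these later groups. The ratio was 7.84 at 8 h (exact counting interval 4.01 to 17.1; log2 fold change 2.86 ± 0.79, adjusted p = 0.0104) and 6.93 at 24 h (3.53 to 15.1; 2.76 ± 0.79, adjusted p = 0.00521). The 8 h call was lost without 0 h replicate 2 (2.25, adjusted p = 0.0606) or 8 h replicate 2 (2.61, adjusted p = 0.0536). It was too low to be tested in RBBP5–FKBP cells, at 0.462, 0 and 0 CPM at 0 h and 0.886, 4.66 and 2.89 at 24 h. In dKO cells it was 0.441 and 1.28 CPM at 0 h and 2.44 and 2.12 at 24 h, a difference that did not pass the test (1.29 ± 0.57, adjusted p = 0.167).

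Sox4 total reads were 329.6, 349 and 354 CPM at 0 h, 268, 312 and 254 at 2 h, 195, 219 and 205 at 8 h and 215, 195 and 167.5 at 24 h in DPY30–mAID cells. All later libraries were below those of 0 h, with values at 8 h and 24 h short of the fold threshold (-0.84 ± 0.12, adjusted p = 8.78e-07, and -0.85 ± 0.12, adjusted p = 1.15e-07). In RBBP5–FKBP cells they were 206, 238 and 211 at 0 h, 154.5, 197 and 151 at 2 h, 128, 111 and 118 at 8 h and 126.7, 100.2 and 81.9 at 24 h. Sox4 was called lower at 24 h (-1.12 ± 0.17, adjusted p = 0.000141), or -0.98 and short of the fold threshold without 24 h replicate 3. In dKO cells the values at 24 h and 48 h were small (-0.33 ± 0.08, adjusted p = 0.0183, and -0.35 ± 0.08, adjusted p = 0.00964) and short of the fold threshold.

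Sox11 total reads were 47.6, 71.2 and 51.2 CPM at 0 h and 32.8, 19.9 and 28.7 at 8 h in RBBP5–FKBP cells, without overlap. It was lower at 8 h (-1.11 ± 0.27, adjusted p = 0.0106), a call lost without 0 h replicate 2 (-0.92) or 8 h replicate 2 (-0.95), and stood at -0.98 ± 0.27 (adjusted p = 0.0227) at 24 h, short of the fold threshold. In DPY30–mAID cells Sox11 was 55.2, 51.7 and 49.3 at 0 h and 54.2, 66.0 and 47.6 at 24 h (0.09 ± 0.21). Nr6a1 was 63.0, 64.8 and 70.6 CPM at 0 h, 76.4, 84.1 and 84.9 at 2 h, 112, 118 and 132 at 8 h and 67.4, 58.2 and 55.7 at 24 h in DPY30–mAID cells. The 8 h libraries stood above all others, with a value short of the fold threshold (0.77 ± 0.17, adjusted p = 0.00117), and RBBP5–FKBP cells had no such value (-0.14 ± 0.18). Otx2 and Zic2 had no call in either line. In dKO cells no total level of any member was called at 4, 8, 24 or 48 h, beside 0%, 0%, 0.869% and 1.66% of 11394 genes higher and 0%, 0.00878%, 0.632% and 0.781% lower (edgeR; at an unadjusted p below 0.05, none at 4 h, 1 higher at 8 h, 1 higher and 2 lower at 24 h and 1 higher and 1 lower at 48 h, and none with DESeq2).

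Before degradation, dKO cells differed from DPY30–mAID cells in Zic2. Its total level was 18.6, 23.9 and 23.9 CPM at 0 h in DPY30–mAID cells and 1.62 and 1.67 in dKO cells, and no library of 1 line overlapped the other. Zic2 was lower in dKO cells (-3.72 ± 0.52, adjusted p = 3.7e-07), and this call held in every alternative, where the value ran from -3.81 to -3.25. It was the 1 of 7 tested members called lower, beside 10.0% of 11483 genes, with 0 higher beside 15.0% (none at an unadjusted p below 0.05 or with DESeq2). Sox4 (-0.78 ± 0.11, adjusted p = 3.24e-07) and Otx2 (-0.69 ± 0.20, adjusted p = 0.00413) were short of the fold threshold, and the median of all genes was 0.14. RBBP5–FKBP cells had 25.9, 20.3 and 23.2 CPM of Zic2 at 0 h, whereas Quant-seq of DPY30–mAID cells had 4.48 and 3.15. The reads of Quant-seq and of dKO cells covered 11.2 to 11.9 T positions and those of the other SLAM-seq libraries 18.0 to 19.0. Multi-mapped reads were 33.3% to 34.3% in dKO and 22.8% to 23.3% in DPY30–mAID cells at 0 h. Retinoic acid targets summed to 86.2 to 110 CPM in dKO cells against 10.7 to 13.8. Primed epiblast and streak genes summed to 166 to 170 against 78.4 to 86.2, and neural genes to 101 to 107 against 196 to 228. The part of these differences in the Zic2 values was not tested. The targeted genes themselves were lower in dKO cells at 0 h, with Kdm5a at 26.0 to 27.5 CPM against 74.5 to 106 and Kdm5b at 109 to 151 against 906 to 946.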

How the data were processed

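Quant-seq and SLAM-seq were deposited in 58 libraries, of which 1 repeated another and was not used. The deposited count tables hold whole-number read counts and T>C read counts per 3′UTR interval, which per the file headers were made by the authors with SlamDunk 0.3.4 (GRCm38), while the submitters' processing notes also name HISAT2 2.2.1 and featureCounts. The deposited CPM columns, reads scaled to the library total by the authors, were not used, and CPM was recomputed from the counts. Intervals were summed per gene. Groups came from the labels. Testing required 10 or more reads on average in any group and used edgeR 4.0.16 (R 4.3.3; TMM, quasi-likelihood, Benjamini-Hochberg adjustment), and T>C reads used the library sizes of total reads. Reads with a single T>C conversion were counted as new RNA, because the study's stricter filter on conversions per read could not be rebuilt from counts per interval. DESeq2 1.42.0, scaling, filters, pairing and left-out libraries were alternatives. Fits were tested on simulated data. The 8 members were named by their list; other genes came from fixed lists and from likeness over the RA groups. Members and lists were chosen with earlier results of these data known. Intervals and floors cover counting error only.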

Additional observations from a re-analysis of the deposited data

Results flagged for a closer look

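The effect of auxin on Sox4 differed between day 1 and 8 h of RA by 0.79 ± 0.13 on the log2 scale (adjusted p = 0.00123, edgeR), which is short of the fold threshold. For Otx2 the effect on day 4 differed from that at 8 h by -1.62 ± 0.50 (adjusted p = 0.0498), and for Sox11 the effect on day 6 by 1.10 ± 0.30 (adjusted p = 0.0209). The Otx2 call was lost without any 1 of 7 libraries, with DESeq2, without TMM scaling, with the replicate block and without multi-mapped reads, and the Sox11 call without any 1 of 3 libraries and in a fit of only the groups compared. Primitive endoderm markers differed between the arms on days 4 and 6, and their part in these values was not tested.

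The following cases were picked from all members, from total and T>C reads and from 2, 8 and 24 h. Each had every library above 0 h in 1 line and below it in another. The share of all genes that separate in this way was not counted. At 2 h of degradation total Sox11 reads were above 0 h in every DPY30–mAID library (0.17 ± 0.21) and below it in every RBBP5–FKBP library (-0.72 ± 0.26). Total Sox4 reads were below 0 h in every DPY30–mAID (-0.35 ± 0.12) and RBBP5–FKBP (-0.40 ± 0.16) library and above it in both dKO libraries (0.14 ± 0.08). At 8 h total Zic2 reads were below 0 h in every RBBP5–FKBP library (-0.55 ± 0.33) and above it in both dKO libraries (0.61 ± 0.50). The dKO counts were 16 and 18 reads at 8 h and 11 and 13 at 0 h. None of these changes passed the edgeR test (smallest adjusted p = 0.322), and the differences between the lines were not tested.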

How the results depend on the processing

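Of 311 member comparisons 54 were called, of which 23 were kept under every alternative, 31 were lost under at least 1 and 1 changed sign, namely Nr6a1 T>C reads at 48 h in dKO cells with library sizes from T>C reads (0.15 in place of -1.13). That scaling also left 0 T>C calls lower in RBBP5–FKBP cells (3 otherwise) and 0 in dKO cells (6 otherwise). With no fold threshold the calls were 10 lower against 0 h in DMSO (6 otherwise), 15 higher and 12 lower in successive RA steps (9 and 7), 4 higher and 6 lower for auxin against DMSO (1 and 2), 2 higher for the change of the auxin effect (1), 4, 5 and 2 lower in total reads of DPY30–mAID, RBBP5–FKBP and dKO cells (2, 3 and 0), and 3 lower for dKO against DPY30–mAID cells at 0 h (1). DESeq2 gave 4 lower in RA steps, 0 higher (Lef1 had no adjusted p) and 1 lower for auxin against DMSO, 2 higher and 0 lower for the change of the auxin effect, 3 lower for T>C reads of dKO cells (6 otherwise, 4 with no filter on low counts), and 1 higher and 1 lower for the T>C change in dKO against DPY30–mAID cells (0 and 0). For the change of the auxin effect the 1 lower call became 0 without TMM or without multi-mapped reads and 2 with no filter or with only the groups compared. A fit of only the groups compared gave 2 lower T>C calls in DPY30–mAID cells (1 otherwise) and 1 lower in the comparison of dKO with DPY30–mAID cells, and total reads of DPY30–mAID cells had 1 lower call without TMM or with no filter (2 otherwise). The causes were not tested.

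Leaving out 1 library at a time gave 6 to 9 higher and 5 to 8 lower calls against 0 h in DMSO, 8 to 9 and 4 to 8 in RA steps, 0 to 2 and 1 to 2 for auxin against DMSO, 0 to 2 and 0 to 2 for the change of its effect, 1 to 2, 1 to 4 and 2 to 7 lower T>C calls in DPY30–mAID, RBBP5–FKBP and dKO cells, 1 to 2 higher and 1 to 2 lower for total reads of DPY30–mAID cells, 1 to 4 lower for RBBP5–FKBP cells, and 0 to 1 in either direction for the T>C change in dKO against DPY30–mAID cells. The DMSO day 6 library, alone in its group, could not be left out. Replicate numbers did not pair the libraries, since deviations of same-numbered libraries had mean correlations of 0.0034 (RA), 0.0012, -0.0075 and 0.018 (T>C reads of DPY30–mAID, RBBP5–FKBP and dKO cells). With the replicate block the 1 lower call for the change of the auxin effect became 0, higher calls in RA steps were 8 in place of 9 (Lef1 with auxin from 8 h to day 1 was lost), and lower T>C calls in dKO cells were 7 in place of 6. Depth limits Fgf5, Lef1, Zic2 and Pou3f1 most.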
